A study of Mus musculus with 23 samples.

Results

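The liver's response to a high-fat diet was compared between IL-4 knockout (IL4KO) and wild-type (WT) mice, gene by gene. For each gene the diet effect in IL4KO livers, as log2 of high-fat diet over chow, was set against the diet effect in WT livers. The difference between these effects, IL4KO minus WT, is the diet-by-genotype interaction, so a positive value means a higher and a negative value a lower diet response in IL4KO. The comparison uses 15 of the 23 liver RNA-seq libraries of the series, chosen by the genotype and diet in their titles. They are 3 libraries of IL4KO mice on the high-fat diet (HFD), 4 of IL4KO mice on chow, 4 of WT mice on HFD and 4 of WT mice on chow, each from a separate mouse. All mice were males on a C57Bl/6 background, obtained from Taconic Farms when 6 to 8 weeks old, and were fed for 15 weeks with chow or with a diet giving 60% of its energy as fat (Harlan TD.06414). Libraries were made from total RNA of perfused livers. The sources used here give no knockout allele, litter, housing or hour of collection. The libraries of IL-10/IL-4 double knockout (dKO) mice, fed in the same way, entered the fit to estimate the spread between mice and are cited beside a result where stated.

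IL-4 is a cytokine of type 2 immunity that signals through its receptor to STAT6 and is best known for alternative activation of macrophages. In the liver, the transcription factors SREBP-1c (encoded by Srebf1) and ChREBP (encoded by Mlxipl) drive de novo lipogenesis, in which acetyl-CoA is built into fatty acids and these into triglyceride. Insulin and dietary sugar raise this pathway, and many of its genes also cycle over the day under the circadian clock, a feedback loop in which CLOCK and BMAL1 (encoded by Arntl) turn on the Per, Cry and Rev-erb genes that repress them.

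Library totals were 7788330 to 8935353 counts in IL4KO on HFD, 7114459 to 11179746 counts in IL4KO on chow, 8601870 to 18240409 counts in WT on HFD and 10878999 to 12546501 counts in WT on chow. The 3 IL4KO livers on HFD differed from each other more than the mice of the other groups. Correlations of log2 CPM (counts scaled to a common library total) between replicate libraries were 0.958 to 0.984 in that group, against 0.986 to 0.993 in the other 3 groups. On the first principal component of the 15 libraries, which held 38.6% of the variance, these 3 libraries scored 10.4, 47.1 and -14.9. The IL4KO chow livers scored -30.2 to -24, the WT HFD livers 19.3 to 37 and the WT chow livers -17.7 to -4.55. Library 2 thus lay beyond the WT HFD livers and library 3 within the span of the WT chow livers. Il4 itself had 0 to 1 counts in each of the 15 libraries, WT libraries at 0 included, so its counts could not check the genotype labels at this depth. Hepatocyte markers summed to 107800 to 155000 CPM in IL4KO on HFD, 124800 to 149900 CPM in IL4KO on chow, 132100 to 153400 CPM in WT on HFD and 145900 to 149100 CPM in WT on chow, with none of the 16 markers found in the table at 0 in a group.

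Of 12891 genes tested, 6 had a diet response that differed between IL4KO and WT livers (0.0465% of genes; FDR below 0.05 in edgeR's two-sided quasi-likelihood test, with Benjamini-Hochberg adjustment across the 12891 genes). The response was higher in IL4KO for 2 genes (0.0155%), Abtb2 among them, and lower for 4 genes (0.031%), Plekhg5, Gpam, Sh3bp5 and Pitpnm2. Such genes are referred to as called. At an unadjusted p below 0.05 there were 1379 genes (10.7%), of which 642 were higher (4.98%) and 737 lower (5.72%). Leaving out a library at a time gave 3 to 8 called genes. The fit of the 15 IL4KO and WT libraries alone called 21 genes, and DESeq2 called 68, each including these 6.

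Abtb2, which encodes an ankyrin repeat and BTB domain protein (chr2:103566310-103718423, mm10), had a higher diet response in IL4KO livers. It had 10.6, 6.26 and 11.9 CPM in IL4KO livers on HFD, 11.5, 9.57, 8.01 and 7.38 CPM in IL4KO livers on chow, 5.42, 7.16, 8.18 and 10.3 CPM in WT livers on HFD, and 20.5, 22.8, 25 and 25.7 CPM in WT livers on chow. The 4 WT chow livers stood above all the others, and the other 3 groups overlapped. Abtb2 fell in WT livers on HFD by 1.59 (FDR 1.13e-05), with a diet effect in IL4KO livers of 0.05 (FDR 0.928) and an interaction of 1.63 (SE 0.287, 95% interval 1.04 to 2.23, FDR 0.026). This call was lost without WT_chow library 2, 3 or 4, WT_HFD library 2 or 3, IL4KO_chow library 2, 3 or 4, or IL4KO_HFD library 1 or 3, at FDR values up to 0.132.

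Plekhg5, which encodes a guanine nucleotide exchange factor for small GTPases (chr4:152072433-152115404), had the smallest FDR among the genes with a lower response. It had 7.2, 9.39 and 8.37 CPM in IL4KO livers on HFD, 8.9, 10.6, 10.9 and 10.4 CPM in IL4KO livers on chow, 6.88, 6.24, 6.42 and 6.98 CPM in WT livers on HFD, and 2.68, 3.91, 3.53 and 3.57 CPM in WT livers on chow. The WT chow livers were the lowest of the 15, below all WT HFD livers, while the ranges of the IL4KO groups on the different diets overlapped. Plekhg5 rose in WT livers on HFD by 0.95 (FDR 5.71e-05), against a diet effect of -0.29 (FDR 0.175) in IL4KO livers. The interaction was -1.24 (SE 0.186, 95% interval -1.63 to -0.85, FDR 0.00634) and was called without each of the 15 libraries in turn. It was lost when all libraries were thinned to the smallest total (FDR 0.11).

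Gpam, the mitochondrial acyltransferase that starts triglyceride synthesis (chr19:55067635-55127319), had 134, 133 and 128 CPM in IL4KO livers on HFD, 161, 142, 140 and 178 CPM in IL4KO livers on chow, 278, 191, 284 and 296 CPM in WT livers on HFD, and 134, 138, 127 and 107 CPM in WT livers on chow. The WT HFD livers were higher than every other liver, and the 3 IL4KO HFD livers lay below all 4 IL4KO chow livers and within the range of the WT chow livers. Gpam rose in WT livers on HFD by 1.05 (FDR 5.83e-05), whereas the diet effect in IL4KO livers was -0.23 (FDR 0.359). The interaction was -1.29 (SE 0.212, 95% interval -1.73 to -0.85, FDR 0.0147). On HFD Gpam was lower in IL4KO than in WT livers by 0.99 on the log2 scale, and on chow the difference was 0.30 (FDR 0.203). The interaction call was lost without WT_chow library 4 (FDR 0.051) and without IL4KO_HFD library 1 (FDR 0.0565), 2 (FDR 0.0517) or 3 (FDR 0.0772).

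Sh3bp5, which encodes an SH3 domain-binding protein of mitochondria and Rab11 traffic (chr14:31372614-31436100), was the called gene whose diet effects both passed with opposite signs. It had 57, 54.2 and 50.7 CPM in IL4KO livers on HFD, 65.4, 67, 61.1 and 63.1 CPM in IL4KO livers on chow, 63.7, 56.6, 66.6 and 65.8 CPM in WT livers on HFD, and 52.7, 51.1, 55.3 and 51 CPM in WT livers on chow. The groups on HFD and chow did not overlap within either genotype, and their order was reversed between genotypes. Sh3bp5 fell in IL4KO livers on HFD by 0.25 (FDR 0.017) and rose in WT livers on HFD by 0.27 (FDR 0.00292). The interaction was small but tight, at -0.51 (SE 0.0857, 95% interval -0.69 to -0.34, FDR 0.0147). It was lost without WT_chow library 2 or 4, IL4KO_chow library 1 or 2, or IL4KO_HFD library 2 or 3, at FDR values up to 0.0772.

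Pitpnm2, a membrane-associated phosphatidylinositol transfer protein gene (chr5:124118689-124249910), had 64.3, 54.2 and 54.4 CPM in IL4KO livers on HFD and 62.7, 63.4, 74.8 and 63.7 CPM in IL4KO livers on chow. WT livers had 56.9, 53.9, 55.8 and 48 CPM on HFD and 37.6, 38.8, 39 and 34.9 CPM on chow. As with Plekhg5, the WT chow livers were the lowest of the 15 and did not overlap any other group. Pitpnm2 rose in WT livers on HFD by 0.51 (FDR 0.00041), with a diet effect in IL4KO livers of -0.20 (FDR 0.194) and an interaction of -0.71 (SE 0.128, 95% interval -0.97 to -0.44, FDR 0.0304). Only the fits without WT_HFD library 4 or IL4KO_HFD library 1 kept this call among the 15 that left out a library, the others giving FDR values up to 0.096.

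**Figure D1:**
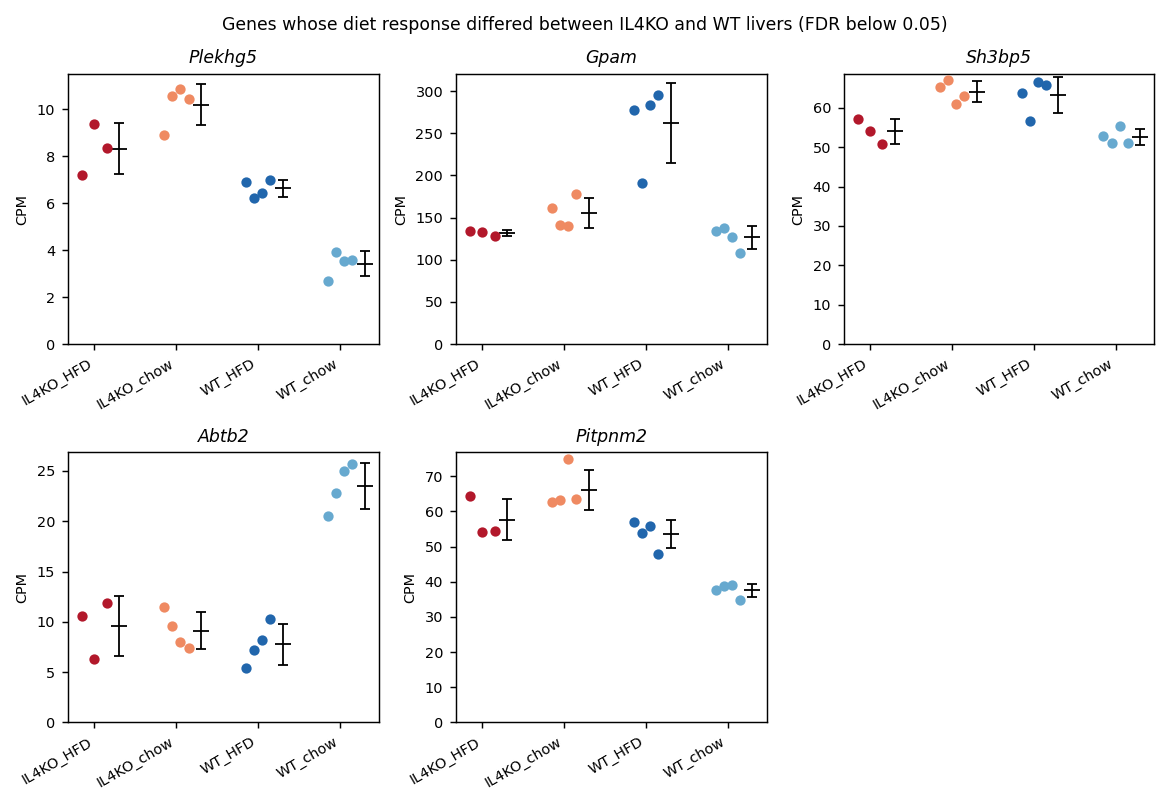
CPM of Plekhg5, Gpam, Sh3bp5, Abtb2 and Pitpnm2 in each of the 15 libraries (points), with the mean and SD of each group beside them (bars), for IL4KO on HFD, IL4KO on chow, WT on HFD and WT on chow. For Abtb2, Plekhg5 and Pitpnm2 the WT chow livers stand apart from the other 3 groups, and for Gpam the WT HFD livers do.

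For 4 of these 5 genes, Gpam being the exception, the genotypes differed on chow and did not pass on HFD. On chow, IL4KO livers were lower than WT livers for Abtb2 (-1.35, FDR 8.13e-05) and higher for Plekhg5 (1.56, FDR 4.91e-08), Pitpnm2 (0.81, FDR 2.92e-06) and Sh3bp5 (0.29, FDR 0.00269). On HFD the same differences were 0.29 (FDR 0.567) for Abtb2, 0.32 (FDR 0.212) for Plekhg5, 0.10 (FDR 0.655) for Pitpnm2 and -0.23 (FDR 0.0525) for Sh3bp5. The interaction is the same contrast read either way, so it tests this difference too. Of all genes, 389 differed between genotypes on HFD (3.02%; 1.73% higher and 1.29% lower in IL4KO) and 1239 on chow (9.61%; 5.93% higher and 3.68% lower).

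The promoters of the called genes were read for 3 motifs tied to lipogenesis and the clock, and are shown here for Gpam, which rose in WT livers on HFD, and Abtb2, which fell. The windows run from 250 bases before to 50 after the annotated start (RefSeq, GRCm38.p6, the same build as mm10), written in the direction of the gene. They are chr19:55127189-55127488 on the minus strand for Gpam, the first of 2 promoters listed for it, and chr2:103566060-103566359 on the plus strand for Abtb2.
Gpam: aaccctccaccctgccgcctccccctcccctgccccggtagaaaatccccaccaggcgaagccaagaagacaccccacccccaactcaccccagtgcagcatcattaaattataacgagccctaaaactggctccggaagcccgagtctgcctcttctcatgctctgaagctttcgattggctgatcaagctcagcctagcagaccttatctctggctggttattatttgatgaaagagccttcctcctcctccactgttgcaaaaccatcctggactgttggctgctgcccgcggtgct
Abtb2: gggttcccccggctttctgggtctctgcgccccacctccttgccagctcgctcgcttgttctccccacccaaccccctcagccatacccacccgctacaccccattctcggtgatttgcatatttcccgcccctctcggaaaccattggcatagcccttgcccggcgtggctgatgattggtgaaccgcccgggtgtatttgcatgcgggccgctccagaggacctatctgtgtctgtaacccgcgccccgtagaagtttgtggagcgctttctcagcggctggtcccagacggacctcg
The motifs, searched on both strands, were the E-box CACGTG, which CLOCK and BMAL1 bind, the D-box TTATGTAA, which the PAR bZIP factors DBP, TEF and HLF bind, and the sterol response element TCACNCCAC, which SREBPs bind. None occurs in the 10 promoters listed for the 5 called genes described here, so these 2 windows have no capitals. Over all 32851 promoters the E-box was in 7.15%, the D-box in 0.938% and the sterol response element in 1.24%. No match says only that these letters are not in these windows.

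The few called interactions lay on top of broad diet effects. The diet effect passed for 1170 genes in IL4KO livers (9.08%; 662 up, 5.14%, and 508 down, 3.94%) and for 2511 genes in WT livers (19.5%; 1242 up, 9.63%, and 1269 down, 9.84%). Of these, 631 passed in both genotypes in the same direction, which is 53.9% of the IL4KO calls and 25.1% of the WT calls, and 3 passed in opposite directions. None of the 631 had a called interaction, beside 0.0465% of all genes. For 74.3% of the 631 the 95% interval of the interaction lay within a 2-fold difference either way, against 69.3% of all genes. A further 1877 genes passed in WT alone, of which 5 had a called interaction, and 536 passed in IL4KO alone, of which 0 did (0.0465% of all genes). A diet effect that passed in a single genotype was thus not in itself a called difference between genotypes. With 6 calls over all genes, these counts are too few to compare the classes. Across the 12891 genes, the diet effects in IL4KO and WT, which share no library, had a Pearson r of 0.619 and a Spearman rank correlation of 0.529, given as a description.

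**Figure D2:**
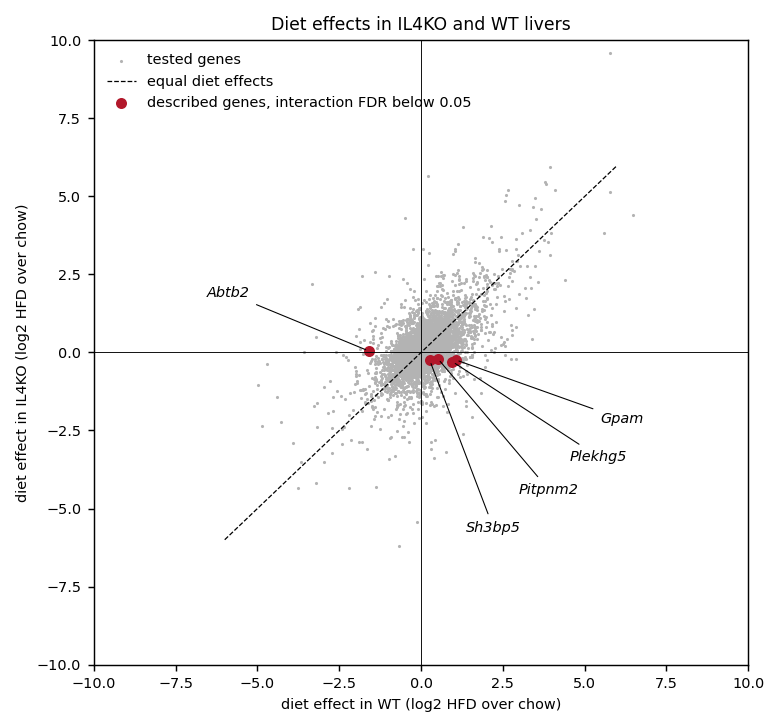
Diet effect in IL4KO livers (vertical axis, log2 HFD over chow) against the diet effect in WT livers (horizontal axis, same scale) for 12891 genes (grey points), with the called genes described here as labelled red points and the line of equal effects dashed. Abtb2, Plekhg5, Gpam and Pitpnm2 lie nearer to 0 on the IL4KO axis, between -0.29 and 0.05, than on the WT axis, while Sh3bp5 lies about as far from 0 on both, below it in IL4KO and above it in WT.

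The precision of the interaction differed between genes. Its median SE was 0.206 (log2), with 0.113 at the 10th and 0.669 at the 90th percentile of genes, and the median size of the interaction was 0.188. The 95% interval lay within a 2-fold difference for 69.3% of all genes. That share was 0.368% for genes under 1 CPM in their highest group, 41.9% at 1 to 10 CPM, 90.6% at 10 to 100 CPM and 86.3% over 100 CPM.

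The other genes with opposite diet effects that both passed were Slc2a4 and Zmiz1. Slc2a4, which encodes the insulin-responsive glucose transporter GLUT4 of muscle and fat, had 1.49, 1.68 and 2.02 CPM in IL4KO livers on HFD and 3.71, 9.12, 3.15 and 6.55 CPM in IL4KO livers on chow. In WT livers it had 1.6, 1.69, 1.99 and 2.56 CPM on HFD and 1.2, 0.652, 0.362 and 0.846 CPM on chow. The 4 IL4KO chow livers were above all the others and the WT chow livers below all of them. Slc2a4 fell in IL4KO livers on HFD by 1.72 (FDR 0.0163) and rose in WT livers on HFD by 1.36 (FDR 0.0329). Its interaction of -3.08 (SE 0.618) did not pass (FDR 0.0696), although it was called in the 15-library fit, without a filter on low counts and in the deposited log2 values. Zmiz1, which encodes a transcriptional coregulator, had an interaction of -0.61 (FDR 0.116).

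De novo lipogenesis was the gene list with the lowest median interaction among those with at least 4 tested members. Of its 25 genes, all tested, 1 had a called interaction (Gpam, lower), beside 0.0465% of all genes, and the median was -0.75, against 0.01 over all genes. The diet response was below 0 in IL4KO minus WT for 22 of the 25 (88%, against 47.8% of all genes), and 10 had an unadjusted p below 0.05 (40%, against 10.7%), all of them lower. The members of this and the other lists were chosen with earlier results of these data known. Such shares are therefore given as a description. The median diet effect of the list was -0.23 in IL4KO livers, where 2 genes rose (5.14% of all genes did) and 4 fell (3.94%), and 0.51 in WT livers, where 9 rose (9.63% of all genes) and 1 fell (9.84%). The mean centred log2 CPM of the list was -0.474 to -0.144 in IL4KO livers on HFD, -0.297 to 0.133 in IL4KO livers on chow, 0.216 to 0.504 in WT livers on HFD and -0.279 to 0.244 in WT livers on chow. The IL4KO and WT livers on HFD did not overlap. On HFD 0 members were higher and 5 lower in IL4KO than in WT livers, against 1.73% and 1.29% of all genes. On chow 2 of the 25 were higher and 0 lower, against 5.93% and 3.68% of all genes, so the chow counts lay near the background.

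Srebf1, the gene of the regulator SREBP-1, had 204, 185 and 228 CPM in IL4KO livers on HFD, 241, 326, 436 and 348 CPM in IL4KO livers on chow, 332, 380, 384 and 398 CPM in WT livers on HFD, and 155, 183, 234 and 215 CPM in WT livers on chow. The IL4KO HFD livers were below all IL4KO chow livers, and the WT HFD livers were above all WT chow livers. It rose in WT livers on HFD by 0.92 (FDR 0.00924), with a diet effect of -0.72 (FDR 0.0834) in IL4KO livers. The interaction of -1.64 (SE 0.347, 95% interval -2.37 to -0.92) did not pass (FDR 0.107). It was called in the 15-library fit and by DESeq2. Mlxipl, the gene of ChREBP, fell on HFD in both genotypes, by 0.73 (FDR 0.00069) in IL4KO and by 0.55 (FDR 0.000951) in WT livers, with an interaction of -0.18 (95% interval -0.49 to 0.14).

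Along the pathway, Acly, which makes cytosolic acetyl-CoA from citrate, had 291, 317 and 277 CPM in IL4KO livers on HFD, 603, 639, 396 and 695 CPM in IL4KO livers on chow, 718, 581, 560 and 793 CPM in WT livers on HFD, and 799, 629, 513 and 500 CPM in WT livers on chow. The 3 IL4KO HFD livers were the lowest of the 15. Acly fell in IL4KO livers on HFD by 0.98 (FDR 0.00264), with a diet effect of 0.12 (FDR 0.665) in WT livers and an interaction of -1.10 (SE 0.245, FDR 0.107). Fasn, the fatty acid synthase gene, averaged 646 ± 195 CPM in IL4KO livers on HFD (SD, n = 3), 1060.4 ± 212 CPM in IL4KO livers on chow, 1675 ± 339 CPM in WT livers on HFD and 1203 ± 258 CPM in WT livers on chow (SD, n = 4 each). Its HFD livers did not overlap between genotypes, IL4KO being lower by 1.38 on the log2 scale (FDR 0.00701), and its interaction was -1.19 (SE 0.359, FDR 0.227). Thrsp, which encodes the lipogenic protein Spot 14, rose in WT livers on HFD by 1.37 (FDR 0.00581), had a diet effect of -0.20 (FDR 0.763) in IL4KO livers and an interaction of -1.57 (SE 0.469, FDR 0.227).

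The acetyl-CoA carboxylase genes Acaca and Acacb had interactions of -0.76 (FDR 0.317) and -0.75 (FDR 0.39). The elongase Elovl6 had -1.24 (FDR 0.229), the glycolytic Pklr -0.97 (FDR 0.227) and Mid1ip1, which activates acetyl-CoA carboxylase, -1.04 (FDR 0.351). Elovl6 and Pklr rose on HFD in WT livers (0.85, FDR 0.0233, and 0.68, FDR 0.0204), while Mid1ip1 fell on HFD in IL4KO livers by 1.16 (FDR 0.0232). The desaturases Fads1 and Fads2, which act on polyunsaturated fatty acids, did not follow the others. Fads2 rose on HFD in both genotypes, by 1.09 (FDR 0.000346) in IL4KO and by 1.21 (FDR 2.09e-05) in WT livers, with an interaction of -0.11 (95% interval -0.56 to 0.34), and the interaction of Fads1 was 0.07 (95% interval -0.22 to 0.37). The last steps of triglyceride synthesis had interactions of 0.17 for Dgat1 (95% interval -0.13 to 0.46), -0.28 for Dgat2 (FDR 0.476) and -0.09 for Lpin1 (95% interval -1.16 to 0.98). Scd1, the abundant stearoyl-CoA desaturase gene, had a wide interval of -2.70 to 0.25 around -1.23, with a WT chow liver at 26665 CPM against 4456 to 4805 CPM in the other 3.

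The count of called lipogenic genes moved with the fit and the library. It was 4 in the 15-library fit (Gpam, Srebf1, Mid1ip1 and Thrsp), where 21 of 12250 tested genes were called, and 4 by DESeq2, where 68 of 12891 were. It was 3 without WT_chow library 1 (8 of 12894 genes called) and 2 without IL4KO_chow library 3 (5 of 12891). It was 0 without WT_chow library 4 (3 of 12898), and 0 without IL4KO_HFD library 1 (4 of 13113), 2 (3 of 13075) or 3 (3 of 13112). The list's median was below 0 in every fit that left out a library, between -0.94 and -0.55.

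**Figure D3:**
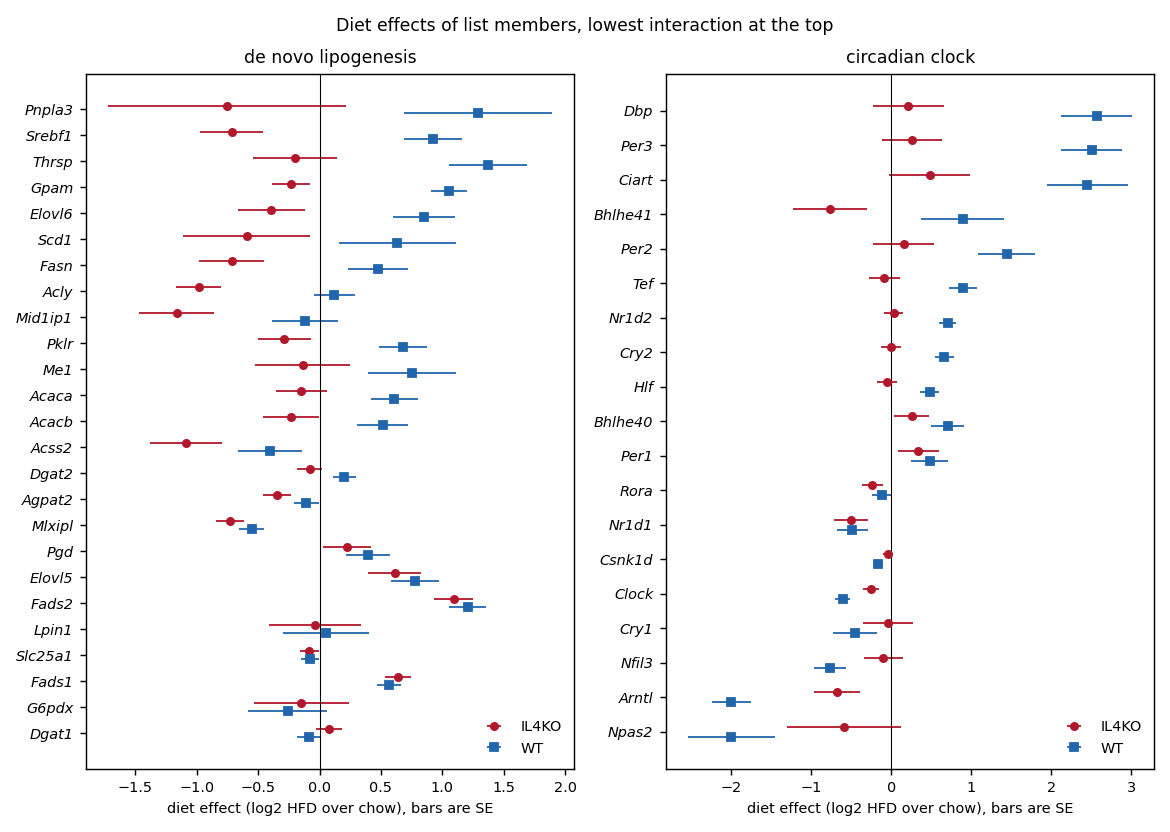
Diet effects (log2 HFD over chow, bars are SE) of the members of the lipogenesis list (left) and of 19 of the 20 clock genes (right) in IL4KO (red circles) and WT livers (blue squares), ordered by interaction. The interaction is below 0, the WT effect lying to the right of the IL4KO effect, for 22 of 25 lipogenic genes, and most IL4KO effects of clock genes lie near 0.

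Circadian clock genes had no called interaction among 20 tested (0.0465% of all genes had one), yet 13 had an unadjusted p below 0.05 (65%, against 10.7% of all genes), 3 higher and 10 lower. The list's median interaction was -0.49, with 14 genes below 0 and 6 above. No clock gene passed for the diet effect in IL4KO livers (9.08% of all genes did), whereas 10 rose and 4 fell in WT livers on HFD (9.63% and 9.84% of all genes). On chow, 8 were higher and 2 lower in IL4KO than in WT livers (5.93% and 3.68% of all genes), and on HFD 1 was higher and 0 lower (1.73% and 1.29%). The mean centred log2 CPM of the list was -0.143 to 0.177 in IL4KO livers on HFD, 0.0455 to 0.273 in IL4KO livers on chow, 0.000756 to 0.195 in WT livers on HFD and -0.441 to -0.139 in WT livers on chow. By this mean the WT chow livers were the lowest group, with the lowest IL4KO HFD liver, library 2, just below the highest WT chow liver. The mean joins members that went opposite ways in WT livers, where 10 rose and 4 fell on HFD. The hour at which each mouse was killed is not given, and its part in these values was not tested.

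Per3, a period gene of the repressive limb, had 20.7, 15.8 and 27.8 CPM in IL4KO livers on HFD, 16, 15.9, 19.3 and 20.5 CPM in IL4KO livers on chow, 30.7, 26.9, 34.6 and 21.8 CPM in WT livers on HFD, and 3.7, 4.24, 3.53 and 8.55 CPM in WT livers on chow. The WT chow livers were the lowest and overlapped no other group. Per3 rose in WT livers on HFD by 2.51 (FDR 0.000248), with a diet effect of 0.26 (FDR 0.713) in IL4KO livers and an interaction of -2.24 (SE 0.536, FDR 0.153). It was called in the 15-library fit and by DESeq2.

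Dbp, an output transcription factor of the clock, had 88.8, 66.1 and 100 CPM in IL4KO livers on HFD, 65.1, 64.8, 75.5 and 88.4 CPM in IL4KO livers on chow, 78, 88.3, 103 and 93.9 CPM in WT livers on HFD, and 14.2, 11.4, 5.25 and 30.6 CPM in WT livers on chow. Its interaction was -2.36 (SE 0.626, FDR 0.179). Arntl, which encodes BMAL1, ran the opposite way: it had 6.17, 6.82 and 4.18 CPM in IL4KO livers on HFD, 11.5, 10.7, 7.72 and 6.41 CPM in IL4KO livers on chow, 4.45, 4.85, 1.99 and 5.07 CPM in WT livers on HFD, and 15.3, 17.5, 22.2 and 12.6 CPM in WT livers on chow. For both genes the WT chow livers lay outside the range of all the others, below it for Dbp and above it for Arntl. The diet effect of Arntl was -0.68 (FDR 0.143) in IL4KO and -1.997 (FDR 2.9e-05) in WT livers, and the interaction was 1.32 (SE 0.38, FDR 0.189).

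Among the other members of the loop, the interaction was -1.29 for the period gene Per2 (FDR 0.39), -0.67 for the repressor Nr1d2 (FDR 0.121), -0.66 for Cry2 (FDR 0.167) and -0.98 for Tef (FDR 0.178). Nr1d1, the other Rev-erb gene, had -0.02 (95% interval -0.62 to 0.59), Per1 -0.14 (95% interval -0.87 to 0.58) and Cry1 0.41 (95% interval -0.47 to 1.28), and none of these 3 passed for diet in either genotype. The count of called clock genes was 2 in the 15-library fit (Per3 among them), where 21 of 12250 tested genes were called. It was 6 by DESeq2 (68 of 12891 genes called) and 1 (Nr1d2) without WT_chow library 4 (3 of 12898). The list's median stayed between -0.57 and -0.40 when libraries were left out.

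Per3 and Ciart, a clock-controlled repressor with an interaction of -1.97 (FDR 0.317), are shown by their promoters, as clock genes with large interactions and motif matches. The E-box was also found in promoters of Bhlhe41, Cry1, Per1 and Tef. The windows are chr4:151044616-151044915 on the minus strand for Per3 and chr3:95882179-95882478 on the minus strand for Ciart (GRCm38.p6). Capitals mark the D-box TTATGTAA in Per3 and the E-box CACGTG in Ciart.
Per3: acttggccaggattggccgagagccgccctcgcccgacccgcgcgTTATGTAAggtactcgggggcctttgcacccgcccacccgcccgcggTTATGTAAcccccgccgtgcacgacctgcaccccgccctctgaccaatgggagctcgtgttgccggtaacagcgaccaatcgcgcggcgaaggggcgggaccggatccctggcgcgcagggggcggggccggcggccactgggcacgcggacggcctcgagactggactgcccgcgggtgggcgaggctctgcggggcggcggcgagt
Ciart: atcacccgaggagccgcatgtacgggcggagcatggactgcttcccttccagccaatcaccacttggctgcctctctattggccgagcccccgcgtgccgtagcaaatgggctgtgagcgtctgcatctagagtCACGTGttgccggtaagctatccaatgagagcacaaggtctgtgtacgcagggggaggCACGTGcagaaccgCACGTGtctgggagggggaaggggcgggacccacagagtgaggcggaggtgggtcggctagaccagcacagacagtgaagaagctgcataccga
The Per3 window holds 2 D-boxes and the Ciart window 3 E-boxes. Of the 21 promoters listed for 16 clock genes, 6 hold an E-box (28.6%, against 7.15% of all promoters) and 1 a D-box (4.76%, against 0.938%). Of the 28 promoters listed for 21 lipogenic genes, 1 holds the sterol response element, that of Mlxipl. These matches are letters in a window and say nothing of binding in these livers.

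**Figure D4:**
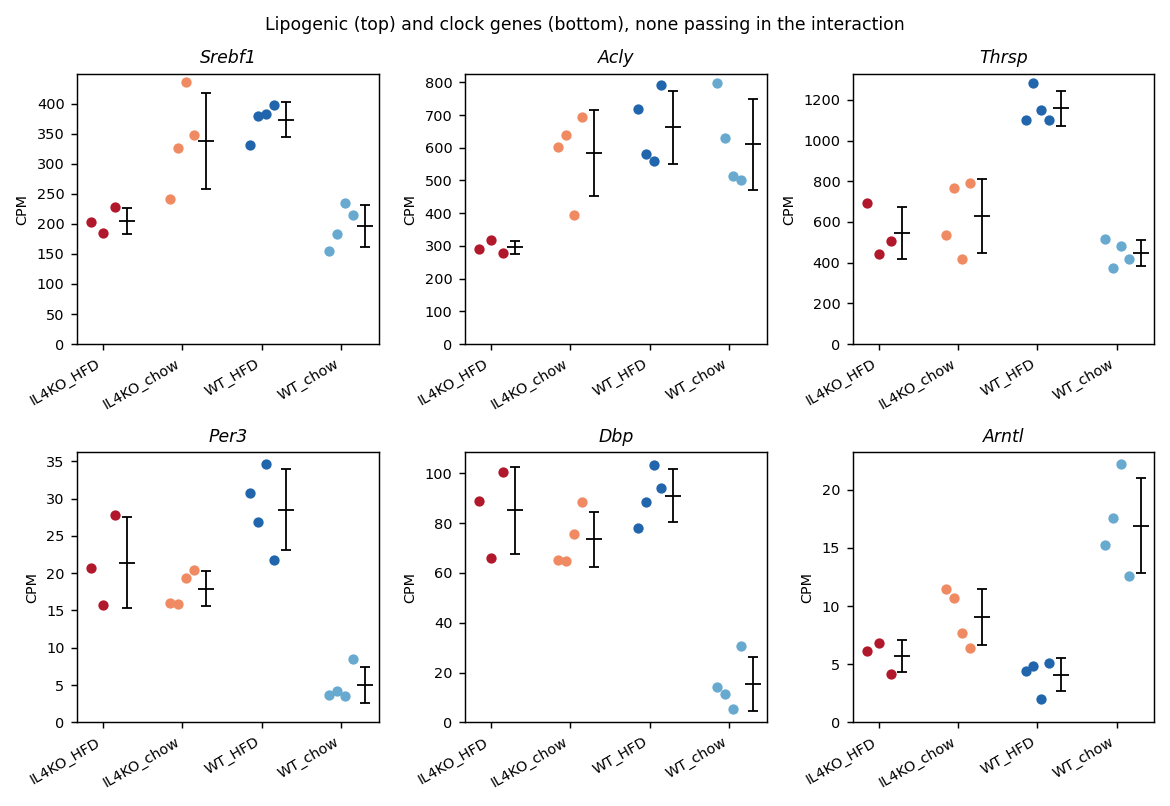
CPM of the lipogenic genes Srebf1, Acly and Thrsp (top) and the clock genes Per3, Dbp and Arntl (bottom) in each of the 15 libraries, with group mean and SD, for IL4KO on HFD, IL4KO on chow, WT on HFD and WT on chow. Acly is lowest in the 3 IL4KO HFD livers, at 277 to 317 CPM, and Per3 and Dbp are lowest in the WT chow livers.

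The genes ranked 7 to 20 by FDR are described as values, chosen after their values were seen, and none passed (FDR 0.065 to 0.107). Fgfr3, a fibroblast growth factor receptor gene, had 20.6, 18.1 and 31.4 CPM in IL4KO livers on HFD, 60.4, 55.4, 59.1 and 57 CPM in IL4KO livers on chow, 22.5, 28.3, 29.1 and 34.5 CPM in WT livers on HFD, and 25.6, 23.6, 28.9 and 29.9 CPM in WT livers on chow. The IL4KO chow livers stood above all the others. Fgfr3 fell in IL4KO livers on HFD by 1.32 (FDR 0.00071), against a diet effect of 0.08 (FDR 0.791) in WT livers, with an interaction of -1.40 (SE 0.268, FDR 0.065). It was called in 8 of the 13 other settings, the 15-library fit and DESeq2 among them, and in 2 of the 15 fits that left out a library.

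Fzd4, a Wnt receptor gene, had 15.4, 11.7 and 15.8 CPM in IL4KO livers on HFD, 15.5, 14.8, 16.2 and 20.8 CPM in IL4KO livers on chow, 11, 8.47, 13.1 and 10.2 CPM in WT livers on HFD, and 4.62, 5.46, 6.07 and 5.83 CPM in WT livers on chow. The WT chow livers were again lowest without overlap. The interaction was -1.17 (SE 0.231, FDR 0.065). Crip2, which encodes a LIM domain protein, was highest in WT chow livers at 59.2 to 71.8 CPM, against 39.3 to 49.6 CPM in IL4KO livers on HFD, 40 to 46.8 CPM in IL4KO livers on chow and 28.4 to 44.3 CPM in WT livers on HFD, with an interaction of 0.89 (SE 0.18, FDR 0.0696). Elk4, an ETS transcription factor gene, had an interaction of -0.98 (FDR 0.087), the cell-surface gene Fgfrl1 -0.54 (FDR 0.107), and Rfxank, a regulator of MHC class II genes, 0.71 (FDR 0.107).

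No gene list other than lipogenesis held a called interaction, which 0.0465% of all genes had. Cholesterol synthesis and SREBP2 targets had a median of 0.02 over 25 genes, with 15 above 0 and 10 below. Of these, 0 were higher and 5 lower in IL4KO than in WT livers on HFD (1.73% and 1.29% of all genes), and 0 were higher and 6 lower on chow (5.93% and 3.68%). Fatty acid oxidation and PPARA targets rose with diet to a like count in both genotypes, 12 of 28 in IL4KO (5.14% of all genes rose) and 14 of 28 in WT livers (9.63%) with 0 falling in either, and had a median interaction of 0.07. Lipid droplet and PPARG targets rose for 12 of 21 in each genotype, beside those same shares of all genes, with a median interaction of 0.04. Fgf21, a liver hormone of the fasting response, rose in IL4KO livers on HFD by 3.15 (FDR 0.00221), with a diet effect of 0.98 (FDR 0.106) in WT livers. It had 5.94 to 11.4 CPM in IL4KO livers on HFD and 0.715 to 1.25 CPM in IL4KO livers on chow. WT livers had 5.31 to 10.25 CPM on HFD and 3.26 to 4.89 CPM on chow. Fgf21 thus overlapped between genotypes on HFD and was lower without overlap in IL4KO livers on chow, near the floor. Its interaction of 2.17 (SE 0.71) did not pass (FDR 0.271), and it was called in the 15-library fit (FDR 0.0347).

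The unfolded protein and integrated stress response list had a median interaction of 0.35, with 26 of 28 genes above 0 and 2 below (47.8% of all genes were below). At an unadjusted p below 0.05 there were 5, all higher (17.9%, against 4.98% of all genes higher and 10.7% in either direction). On chow 9 of its genes were lower in IL4KO than in WT livers (3.68% of all genes were lower there), and on HFD 0 differed. Creld2, an endoplasmic reticulum chaperone gene, had 36.6, 24.6 and 74.5 CPM in IL4KO livers on HFD and 32.3, 30.3, 43.6 and 25.1 CPM in IL4KO livers on chow. In WT livers it had 38.4, 37.4, 35.2 and 41 CPM on HFD and 75.7, 82.4, 51.4 and 151 CPM on chow. Its interaction was 1.70 (SE 0.605, FDR 0.312). The type I interferon list had a median of -0.23, with 25 of 30 genes below 0 (83.3%, against 47.8% of all genes). At an unadjusted p below 0.05 there were 6, all lower (20%, against 5.72% of all genes lower and 10.7% in either direction). Its members Ifih1, a sensor of double-stranded RNA, and Ifit1 had interactions of -0.33 (FDR 0.294) and -0.91 (FDR 0.302). The cell cycle list had a median of -0.44, with 22 of 26 genes below 0 (84.6%, against 47.8% of all genes). Of the 26, 3 had an unadjusted p below 0.05, all lower (11.5%, against 5.72% of all genes lower and 10.7% in either direction). Its median diet effect was 0.52 in IL4KO livers, where 0 genes passed as higher (5.14% of all genes did), and 0.95 in WT livers, where 12 did (9.63% of all genes). Mcm4, a subunit of the replicative helicase, had an interaction of -0.96 (FDR 0.272).

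Genes that IL-4 signalling or alternative activation of macrophages is known for gave little. Of 22 listed, 14 passed the filter on low counts, 0 passed for diet, genotype or interaction, and their median interaction was 0.03, with Jak1, a kinase of the IL-4 receptor, having the lowest FDR (-0.20, FDR 0.472).

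The other liver programmes are given by their medians, against 0.01 over all genes. Xenobiotic metabolism had a median interaction of -0.20 over 24 genes, and NRF2 targets -0.21 over 17 genes, of which 16 were below 0 (94.1%, against 47.8% of all genes). Of the NRF2 targets 0 had an unadjusted p below 0.05 (10.7% of all genes did). Their mean centred log2 CPM was 0.11, 0.706 and -0.878 in the IL4KO livers on HFD, a wider span than the -0.367 to 0.562 of all other livers. Oxidative phosphorylation had a median interaction of 0.06 over 38 genes, which ranged from -0.09 to 0.34 and all had a 95% interval within a 2-fold difference. Bile acid genes had -0.03, gluconeogenesis and insulin signalling -0.14, the growth hormone and IGF1 axis -0.15, urea cycle and amino acid breakdown -0.08 and heat shock proteins 0.11. Among immune lists the acute phase had 0.12, inflammatory cytokines and chemokines 0.27 and antigen presentation -0.23.

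In whole liver, fewer cells of a type and less RNA per cell cannot be told apart. Markers of other cell types gave no called interaction. The markers of monocyte-derived and lipid-associated macrophages gave a median interaction of 0.46, with 17 of 20 above 0 and 3 below (15%, against 47.8% of all genes). Their summed level was 1110 to 1677 CPM in IL4KO livers on HFD, 1115 to 1210 CPM in IL4KO livers on chow, 1215 to 1285 CPM in WT livers on HFD and 1026 to 1395 CPM in WT livers on chow, with none of the markers at 0 in a whole group. Without IL4KO_HFD library 2 the median was -0.49. Extracellular matrix and stellate activation genes likewise had a median of 0.27 over 41 genes, which became -0.27 without that library, and the cell cycle list had -1.02 without it. Male-biased liver genes, with a median of 0.02 over 21 genes, had -0.88 without IL4KO_HFD library 3. These lists thus depended on single IL4KO HFD livers, which was not the case for the sign of the lipogenesis and clock medians.

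Cholangiocyte markers summed to 67.1 to 195 CPM in IL4KO livers on HFD, 58.4 to 70.6 CPM in IL4KO livers on chow, 88.6 to 124 CPM in WT livers on HFD and 64 to 69.4 CPM in WT livers on chow, with a median interaction of 0.03 over 13 genes. Adipocyte markers, led by Car3, which hepatocytes also express, summed to 1846 to 2190 CPM in IL4KO livers on HFD, 2287 to 4133 CPM in IL4KO livers on chow, 2916 to 3392 CPM in WT livers on HFD and 1456 to 3026 CPM in WT livers on chow. Of their defining members, Plin1 was at 0 in all 4 groups and Adipoq in both IL4KO groups, and 4 of the 8 were tested, with a median of -0.57. T and NK cell markers summed to at most 13.1 CPM in a library and B and plasma cell markers had 4 tested members. Median interactions were 0.05 for hepatocyte, 0.15 for Kupffer cell, 0.20 for neutrophil, 0.02 for endothelial, -0.63 for T and NK cell, -0.06 for B and plasma cell and -0.66 for erythroid markers, and the tested gene of the muscle and pancreas markers, Cela1, had 0.72. The part of these cell types in the interactions was not tested.

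**Figure D5:**
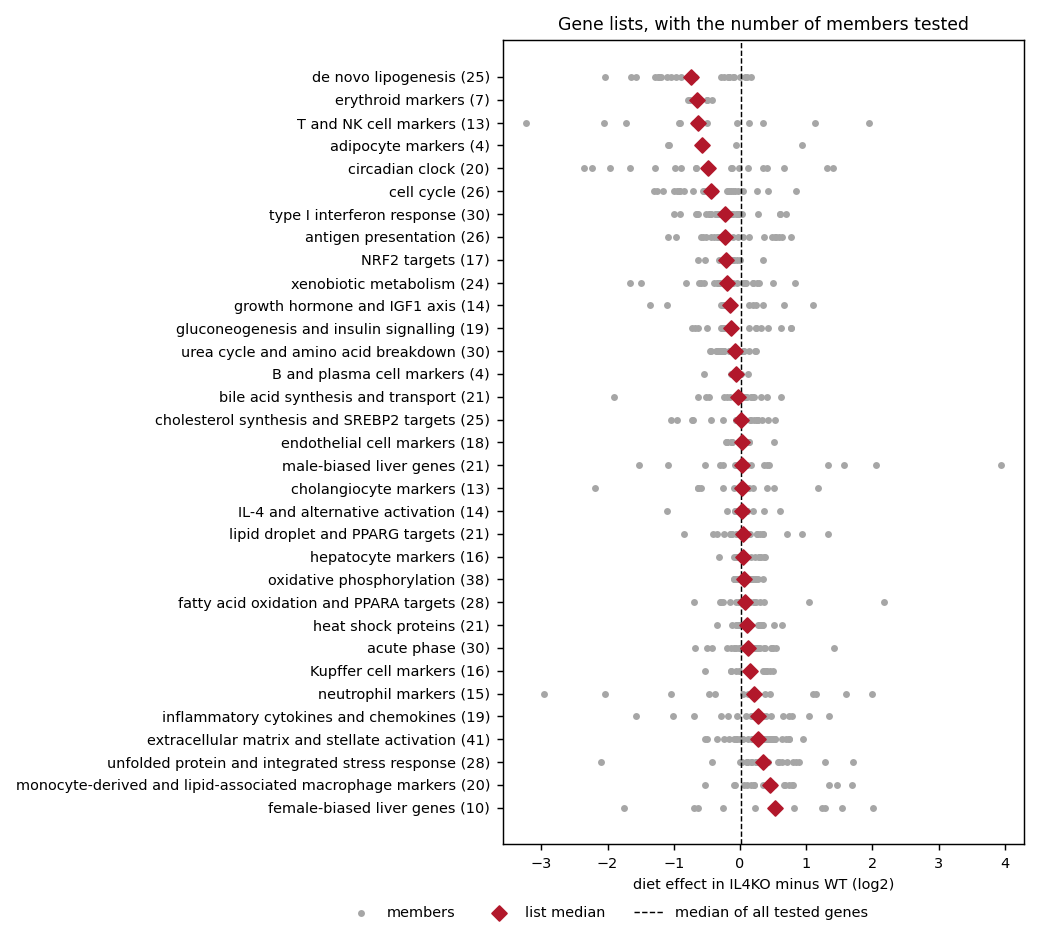
Interaction (log2, IL4KO diet effect minus WT diet effect) of the tested members of each gene list (grey points) with the list's median (red diamonds), for lists with at least 4 tested members, and the median of all tested genes (dashed line, 0.01). De novo lipogenesis has the lowest median at -0.75, and female-biased liver genes the highest at 0.52 from 10 genes.

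By their labels the dKO mice lack IL-4 as well as IL-10. Il4 had 0 to 3 counts in each dKO library, so its counts could not check these labels either. The dKO values for the called genes described here are given side by side, since the dKO comparisons share the WT or the IL4KO libraries. Library 4 of the dKO mice on HFD stood apart from its group: its log2 CPM correlated at 0.969 to 0.971 with the other 3 and at 0.977 to 0.983 with the dKO chow livers, against 0.989 to 0.992 among the other 3. Cidea, a lipid droplet gene, had 50.5, 33.1, 38.8 and 0.156 CPM in dKO livers on HFD and 0.0597 to 0.467 CPM in dKO livers on chow, so library 4 lay with the chow livers. Without it the fit called 9 interactions of IL4KO minus WT (3 higher, 6 lower; 0.0703% of 12811 genes), including all 6 called with it. Abtb2 had 8.13, 10.1, 9.85 and 13.4 CPM in dKO livers on HFD and 22.2, 21.8, 19 and 21.3 CPM in dKO livers on chow, and the groups did not overlap. It fell in dKO livers on HFD by 1.03 (FDR 0.000135), with interactions of 1.07 for IL4KO minus dKO (FDR 0.00949) and 0.56 for dKO minus WT (FDR 0.103). Without that library these were 1.20 (FDR 0.00207) and 0.44 (FDR 0.162), with a fall of Abtb2 in dKO livers on HFD by 1.15 (FDR 1.67e-05).

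Gpam rose in dKO livers on HFD by 0.68 (FDR 0.000818), at 126, 129, 114 and 92.2 CPM on HFD and 77.9, 84.2, 72.9 and 52.2 CPM on chow. Its IL4KO minus dKO interaction was -0.92 (FDR 0.00477) and its dKO minus WT interaction -0.37 (FDR 0.177). Sh3bp5 and Pitpnm2 also rose in dKO livers on HFD, by 0.19 (FDR 0.0102) and 0.25 (FDR 0.0226), with IL4KO minus dKO interactions of -0.44 (FDR 0.0018) and -0.45 (FDR 0.0146). Plekhg5 differed from these: its diet effect in dKO livers was 0.07 (FDR 0.796), its dKO minus WT interaction was -0.88 (FDR 0.00218) and its IL4KO minus dKO interaction -0.36 (FDR 0.137). Over all genes the diet effect passed for 40% in dKO livers (19.4% up and 20.5% down), the dKO minus WT interaction for 25.2% and the IL4KO minus dKO interaction for 24.4%. Without dKO_HFD library 4 these shares were 46.5%, 34.8% and 32.7%. The dKO diet effects were then 0.78 for Gpam (FDR 0.000159), 0.19 for Sh3bp5 (FDR 0.0166), 0.29 for Pitpnm2 (FDR 0.012) and 0.05 for Plekhg5 (FDR 0.92). In the 3 dKO comparisons of the 5 genes, no result changed sides of the FDR threshold when that library was left out.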

How the data were processed

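Polyadenylated RNA of perfused mouse livers was sequenced with a stranded TruSeq kit, per the labels' protocols. The authors deposited estimated counts per gene and a table of log2 values of fewer genes (14078, against 24440 with counts), which by its values holds log2 of CPM plus 1 shifted per library. The submitters' processing notes name bcl2fastq 2.16, TopHat2 2.0.8, Partek and mm10; the sources used here do not give the annotation or the counting and strand settings. For the tests the estimated counts deposited by the authors were rounded to integers, filtered with filterByExpr by group and scaled by TMM. One edgeR quasi-likelihood fit (robust, edgeR 4.0.16, R 4.3.3) with a mean for each of the 6 groups used all 23 libraries, leaving 17 residual degrees of freedom. P-values were adjusted by the Benjamini-Hochberg method over 12891 genes, and FDR below 0.05 was called. The SE of a log2 difference was its size divided by the square root of F. CPM use TMM-scaled totals and compare libraries, not genes.

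The alternatives were other scaling factors, filters and tools (DESeq2 1.42.0, limma 3.58.1 with voom), the deposited log2 values, thinned counts, the 15 libraries alone and each of them left out. Fits without dKO_HFD library 4, or of the 15 libraries without IL4KO_HFD library 2 or 3, were added after seeing the data. The interaction test was also run on counts simulated from the fit, with differences planted in some genes. It called 20.9% of those planted at 1.5-fold, 43.3% at 2-fold and 83.3% at 4-fold. Of its 101 calls, 3 were false (2.97%). A gene whose interaction did not pass can thus still differ between genotypes. Genes named in full were those called with at least 2 CPM in their highest group and those with opposite called diet effects; further genes were taken from the lists and from the first 20 by FDR. The members and the 34 gene lists were chosen with earlier results of these data known. Each mouse gave 1 library, and library numbers follow the order of deposit. Some genes, a called one among them, are not reported here. No pair of libraries held identical values.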

Additional observations from a re-analysis of the deposited data

Results flagged for a closer look

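The diet effect in IL4KO minus WT passed the interaction test for 6 genes, and the differences for those described above are listed here with their size on the log2 scale. They were 1.63 for Abtb2, -1.24 for Plekhg5, -1.29 for Gpam, -0.514 for Sh3bp5 and -0.708 for Pitpnm2.

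Single libraries far from the rest of their group, by Dixon's test at the 95% level, were found in 5 of the 72 groups of 4 tested, where chance alone gives about 1 in 20 groups. Gpam had 191.0 CPM in WT_HFD library 2, below the other 3 WT HFD livers. Pitpnm2 had 74.8 CPM and Crip2 46.8 CPM in IL4KO_chow library 3, each above the other 3 livers of that group. Usp49, which encodes a ubiquitin-specific protease, had 3.1 CPM in WT_chow library 4. Rfxank had 8.76 CPM in WT_HFD library 3. The groups of 3 IL4KO HFD livers were not tested in this way.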

How the results depend on the processing

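The 6 calls moved with the fit. DESeq2 called 68 genes (19 higher, 49 lower), the 15 IL4KO and WT libraries alone 21 (6 higher, 15 lower) and limma on the deposited log2 values 11 (8 lower), each with all 6 genes. Thinning to the smallest library left 3 (1 lower), and limma-voom had 1 higher. Without dKO_HFD library 4, left out after seeing the data, 9 genes were called (3 higher, 6 lower), with all 6, and diet calls in IL4KO were 1510. In 15-library fits chosen after seeing the data, 15 genes (8 higher, 7 lower) were called without IL4KO_HFD library 2 and 19 (4 higher, 15 lower) without library 3, of which 5 and 3 were among the 6. Diet calls in IL4KO were then 457 and 2187, and genotype calls on HFD 807 and 228. The share of calls with a higher response was 33.3%, against 66.7% thinned, 20% with limma-voom, 53.3% in the 15-library fit without IL4KO_HFD library 2, 66.7% and 50% without IL4KO_HFD library 2 or IL4KO_chow library 1, and 20% without IL4KO_chow library 3. The cause was not tested.

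With a library left out in turn, 3 to 8 genes were called, 1 to 2 higher and 1 to 6 lower. The lowest count, 3, came without WT_chow library 2 or 4, IL4KO_chow library 2, or IL4KO_HFD library 2 or 3. Diet calls were 236 (without IL4KO_HFD library 2) to 2030 (without library 3) in IL4KO and 1751 to 2833 in WT. Genotype calls were 185 to 631 on HFD and 828 to 1428 on chow. No result changed sign among called values. Of the named genes' results under alternatives, 1045 kept their side of the threshold, 59 came to pass and 41 no longer passed. No paired analysis was possible because the labels give no replicate numbers. Precision was lowest for genes under 1 CPM in their highest group.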
